A study of Mus musculus with 6 samples.

Results

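The 6 long noncoding RNA genes Malat1, Neat1, Meg3, Rian, Miat and Snhg11 were followed in RNA that came down with LARP1 from mouse dorsal root ganglia, the clusters of sensory neuron cell bodies outside the spinal cord. They were chosen by Ensembl identifier, and all 6 were found among the 16976 genes of the deposited count table. The tissue was wild-type, and 3 libraries were labelled injured (after sciatic nerve injury) and 3 uninjured. The labels gave no time after injury, age, sex, strain or number of animals, and nothing in them says that the libraries of a group came from separate mice. No input RNA or control precipitate was analysed here, so each value is a level inside the precipitate and not an enrichment over the ganglion. In such bulk material, fewer cells of a type and less of an RNA per cell cannot be told apart.

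LARP1 is a cytoplasmic protein known for binding mRNAs that begin with a C followed by a run of pyrimidines, the terminal oligopyrimidine (TOP) tract, and for contacting poly(A) tails. Several of the RNAs described here are known instead from the nucleus: Malat1 gathers in nuclear speckles, the long form of Neat1 is the scaffold of paraspeckles, and Miat (also called Gomafu) sits in nuclear bodies of neurons and binds splicing factors. Meg3 and Rian are maternally expressed noncoding RNAs of the imprinted Dlk1-Dio3 region, and Snhg11 carries small nucleolar RNAs in its introns.

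Because LARP1 is known for transcripts with a TOP tract, the bases around the annotated start of each gene are shown. They are from RefSeq on build GRCm38.p6, which held start windows for 5 of the 6 genes, 2 of them for Meg3. Each run has 20 bases before the start and 20 from the start on, read along the strand of the gene, and the capitals mark the first 5 bases of the transcript.
Malat1, chr19:5802653-5802692, minus strand: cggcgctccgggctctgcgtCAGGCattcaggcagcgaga
Meg3, upstream start, chr12:109540976-109541015, plus strand: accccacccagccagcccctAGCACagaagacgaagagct
Meg3, downstream start, chr12:109545378-109545417, plus strand: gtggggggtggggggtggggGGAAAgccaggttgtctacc
Rian, chr12:109603925-109603964, plus strand: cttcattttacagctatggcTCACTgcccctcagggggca
Miat, chr5:112228929-112228968, minus strand: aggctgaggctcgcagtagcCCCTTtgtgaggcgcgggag
Snhg11, chr2:158375693-158375732, plus strand: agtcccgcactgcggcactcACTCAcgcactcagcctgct

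A C followed by 4 pyrimidines stood exactly at 1 of these 6 starts, that of Miat. The same pattern stood at 823 of the 32851 RefSeq starts in the table, or 2.51%. When the pattern was allowed to lie within the 15 bases from 5 before the start, Miat and the upstream Meg3 start had it, as did 18.3% of all starts. These are matches of letters to an annotated start, and the starts used in these ganglia were not measured.

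The upstream Meg3 promoter held both other motifs that were searched, and it is the only one of the 6 windows that held either. TATAAA, the TATA box, began 25 bases before the start, and TGACGTCA, the site bound by CREB and ATF factors, began 57 bases before it. On either strand of the 300-base windows, TATAAA was found in 13.6% and TGACGTCA in 1.79% of all starts. Both motifs were chosen after the sequences were seen. The window is shown because Meg3 was the abundantly counted RNA that differed least between the groups. Whether either motif bears on the level of Meg3 was not tested. The capitals mark both motifs, with TATAAA overlapping its reverse complement TTTATA.
Meg3, upstream promoter, chr12:109540746-109541045, plus strand: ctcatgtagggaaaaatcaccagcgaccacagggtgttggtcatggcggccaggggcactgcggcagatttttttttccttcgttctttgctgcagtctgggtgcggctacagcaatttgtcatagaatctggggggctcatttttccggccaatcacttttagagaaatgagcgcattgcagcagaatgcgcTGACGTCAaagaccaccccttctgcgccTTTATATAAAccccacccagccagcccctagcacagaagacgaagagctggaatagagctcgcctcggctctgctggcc

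In the RefSeq annotation, Malat1 and Neat1 were direct neighbours on chromosome 19. Meg3 and Rian lay on chromosome 12 with 1 annotated lncRNA, 6430411K18Rik, between them, and Rian was followed by Mirg. Snhg11 lay on chromosome 2 beside another snoRNA host, Snhg17, and Miat on chromosome 5. Small RNA genes were nested in 4 of the 6. Rian held 11 snoRNA and 3 miRNA genes (Mir341, Mir1188 and Mir370), Meg3 held 2 miRNA genes (Mir770 and Mir1906-1), Snhg11 held 2 snoRNA genes, and Malat1 held the gene of its cleaved small RNA, Mascrna. The annotated span of the protein-coding gene Rtl1 overlapped both Meg3 and Rian, and how the authors' counting assigned reads from such overlaps is not given in the sources used here.

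The 3 injured libraries held 211337 to 211879 counts and the 3 uninjured libraries 116186 to 116608. A single count was therefore worth 4.72 to 4.73 CPM (counts per 1000000 of the library's total) in an injured library and 8.58 to 8.61 CPM in an uninjured library. Between injured libraries, genes with 15 or more summed counts varied on average 1.12 times as much as counting noise alone, and between uninjured libraries 1.16 times. For the 6 RNAs this variance was 0.202 to 1.47 times counting noise with injury and 0.0675 to 0.613 times without. The libraries of a group were therefore summed and counted as 1 sample, and the values of single libraries show counting scatter rather than a spread between animals. Gene names are not part of the table, so markers of ganglion cell types were not checked.

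Together the 6 genes took a smaller share of the injured precipitate. They held 2941 of 634615 counts there, or 0.463% (95% Wilson interval 0.447% to 0.480%), against 2707 of 349027 counts, or 0.776% (0.747% to 0.805%), in the uninjured precipitate. By library the share was 0.454% to 0.477% after injury and 0.759% to 0.801% without it. These intervals, and all those below, cover the counting error of reads only and no spread between samples. The amplified reads were counted without molecular identifiers, so the intervals treat each read as independent and may be too narrow. With 1 sample per group, none of the differences has a replicate check, and injury cannot be told apart from any step in which the groups were handled separately.

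Malat1, ENSMUSG00000092341, was counted 441, 419 and 459 times in the injured libraries, or 2081, 1983 and 2171 CPM. In the uninjured libraries it was counted 452, 464 and 454 times, or 3889, 3979 and 3908 CPM. The groups did not overlap, and every injured library lay far below every uninjured one. The summed level was 2078 CPM (95% exact Poisson interval 1968 to 2194) with injury and 3925 CPM (3720 to 4139) without, a ratio of 0.530 (95% exact interval 0.491 to 0.572).

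Neat1, ENSMUSG00000092274, the neighbour of Malat1, was thinly counted. The injured libraries held 9, 12 and 8 of its counts (42.5, 56.8 and 37.8 CPM) and the uninjured libraries 3, 4 and 3 (25.8, 34.3 and 25.8 CPM). All injured libraries lay above the uninjured ones, but the nearest pair differed by less than the CPM of a single count. Summed, this was 45.7 CPM (30.6 to 65.6) with injury and 28.7 CPM (13.7 to 52.7) without, for a ratio of 1.59 with an interval of 0.756 to 3.67. A difference in Neat1 was not detectable at this depth.

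Within the Malat1 and Neat1 pair, Neat1 made up 2.15% of the counts after injury (29 of 1348, 95% exact interval 1.45% to 3.08%). Without injury it made up 0.725% (10 of 1380, 0.348% to 1.33%). The share was 2.00%, 2.78% and 1.71% in the injured libraries and 0.659%, 0.855% and 0.656% in the uninjured libraries. These shares do not depend on how the libraries are scaled, and the intervals of the groups did not overlap. The share also rises when Malat1 falls, and Malat1 had a ratio of 0.530. Neat1's own ratio had an interval that included 1 (0.756 to 3.67), and its uninjured share rests on 10 counts. The share therefore does not show a difference in Neat1 itself.

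Meg3, ENSMUSG00000021268, was counted 288, 288 and 301 times in the injured libraries, or 1359, 1363 and 1424 CPM. In the uninjured libraries it was counted 202, 204 and 188 times, or 1738, 1750 and 1618 CPM. The groups did not overlap, but the gap was small beside that of Malat1. The summed levels were 1382 CPM (1292 to 1477) with injury and 1702 CPM (1568 to 1844) without, a ratio of 0.812 (0.731 to 0.903).

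Rian, ENSMUSG00000097451, the snoRNA-rich gene downstream of Meg3, was counted 12, 8 and 5 times in the injured libraries (56.6, 37.9 and 23.7 CPM). The uninjured libraries held 3, 2 and 3 (25.8, 17.2 and 25.8 CPM). The groups overlapped, with the third injured library below 2 uninjured ones. Summed, this was 39.4 CPM (25.5 to 58.2) with injury and 22.9 CPM (9.90 to 45.2) without, for a ratio of 1.72 with an interval of 0.751 to 4.41, so a difference in Rian was not detectable at this depth. Rian made up 2.77% of the Rian and Meg3 counts with injury (25 of 902, 1.80% to 4.06%) and 1.33% without (8 of 602, 0.575% to 2.60%), and these intervals overlapped.

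Miat, ENSMUSG00000097767, had the lowest ratio of the 6. It was counted 28, 23 and 20 times in the injured libraries (132, 109 and 94.6 CPM) and 31, 38 and 30 times in the uninjured libraries (267, 326 and 258 CPM). The highest injured library lay well under the lowest uninjured one. The summed levels were 112 CPM (87.4 to 141) with injury and 284 CPM (231 to 345) without, a ratio of 0.394 (0.287 to 0.540). This was the gene whose annotated start, CCCTT, had the form of a TOP tract, and a link between that start and the ratio was not tested.

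Snhg11, ENSMUSG00000044349, was counted 195, 210 and 215 times in the injured libraries, or 920.3, 994 and 1017 CPM. In the uninjured libraries it was counted 200, 222 and 204 times, or 1721, 1904 and 1756 CPM. The groups were far apart, much as for Malat1. The summed levels were 977 CPM (902 to 1057) with injury and 1794 CPM (1656 to 1940) without, a ratio of 0.545 (0.487 to 0.610).

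**Figure D1:**
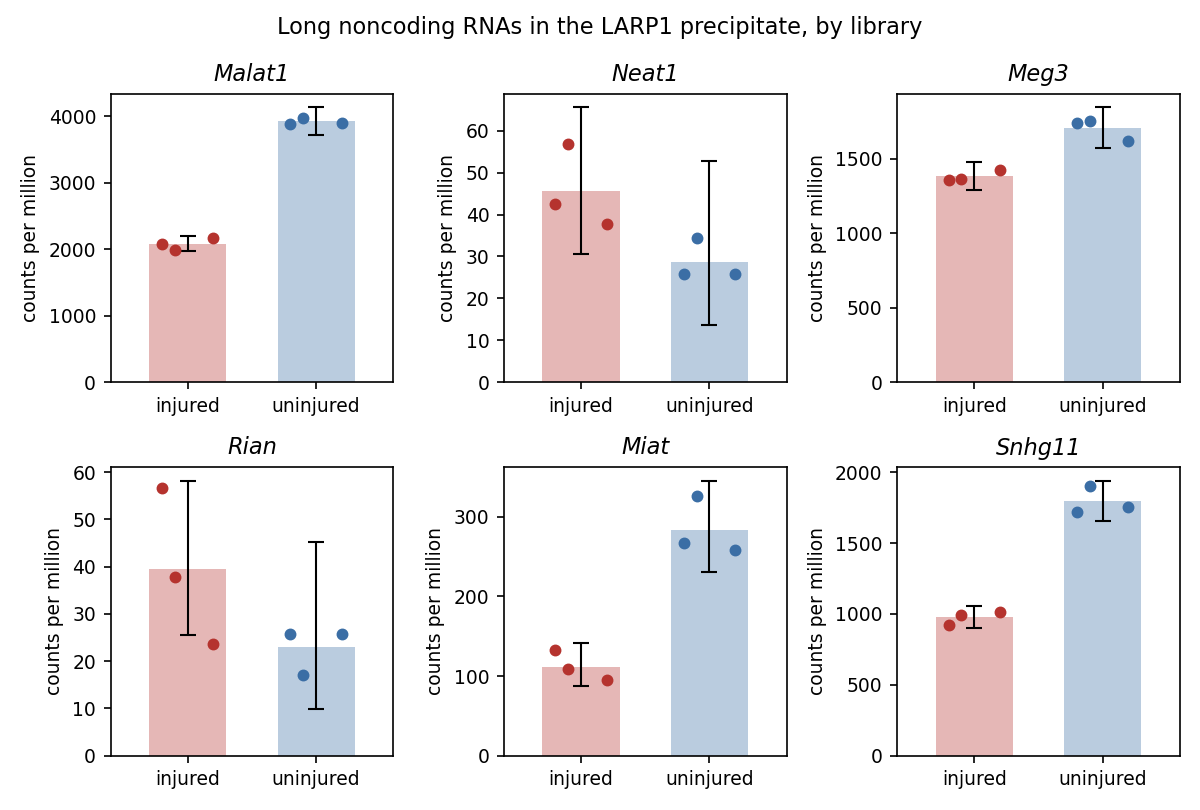
Levels of the 6 long noncoding RNAs in CPM, with injured libraries left of uninjured ones. Points are single libraries, bars the level of the summed group and error bars its 95% exact Poisson interval. Malat1, Miat and Snhg11 are well separated, Meg3 lies closer together (1382 against 1702 CPM), and the intervals of Neat1 and Rian overlap.

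Malat1, Miat and Snhg11, 3 of the 6 RNAs, were lower by more than 1.5-fold in the injured precipitate. The ratios of Neat1 and Rian lay above 1.5, with intervals that include 1. Among the 5004 genes whose mean over the 2 groups reached 30 CPM, 24.1% were lower and 29.4% higher by more than 1.5-fold. That limit was set after the data were seen so that all 6 lay inside it. Neat1 and Rian were under 30 CPM in the uninjured group and reached the limit through their injured level, so nothing is read from setting them against these genes. Past 2-fold stood Miat alone, on the lower side, against 12.8% of these genes on the lower and 18.2% on the higher side. The injured libraries lay wholly below the uninjured ones for Malat1, Meg3, Miat and Snhg11, as they did for 21.4% of the 5004 genes, while 27.0% of these genes lay wholly above.

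Malat1, Meg3, Miat and Snhg11 also passed the low-count filter of the test across all genes, while Neat1 and Rian did not. These 4 had at least 94.6 CPM in each library of both groups. In edgeR's quasi-likelihood test with Benjamini-Hochberg adjustment at 0.05, each of the 4 was called lower in the injured reads, where 22.1% of the 3158 genes tested were called lower and 24.9% higher. The fitted log2 fold changes were -0.99 for Malat1, -0.37 for Meg3, -1.41 for Miat and -0.95 for Snhg11. The test compares the reads of 2 samples and not the conditions, since its spread is that between libraries counted as 1 sample. In a setting added after the data were seen, each group was reduced to its summed counts and a coefficient of variation of 0.2 between samples was assumed. The fitted folds were then 0.501 for Malat1, 0.768 for Meg3, 0.374 for Miat and 0.515 for Snhg11, against 0.503, 0.772, 0.376 and 0.518 in the quasi-likelihood fit. Only Miat of the 4 was still called, where 5.57% of the 3158 genes were called lower and 9.66% higher. Miat had the lowest fold of the 4 and the spread was assumed, so this call is no separate support for it. Without the low-count filter, neither Neat1 nor Rian was called, where 7.16% of 13236 genes were called higher and 4.4% lower.

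Among the 3158 genes tested, 4.97% had a lower ratio than Miat, 11.9% a lower ratio than Malat1, 12.9% a lower ratio than Snhg11 and 31.3% a lower ratio than Meg3. Malat1 and Snhg11 therefore lay in the lower part of the distribution but not at its end, and Meg3 lay nearer its middle. The median log2 ratio was -0.90 for these 4 RNAs and 0.08 for all genes tested.

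**Figure D2:**
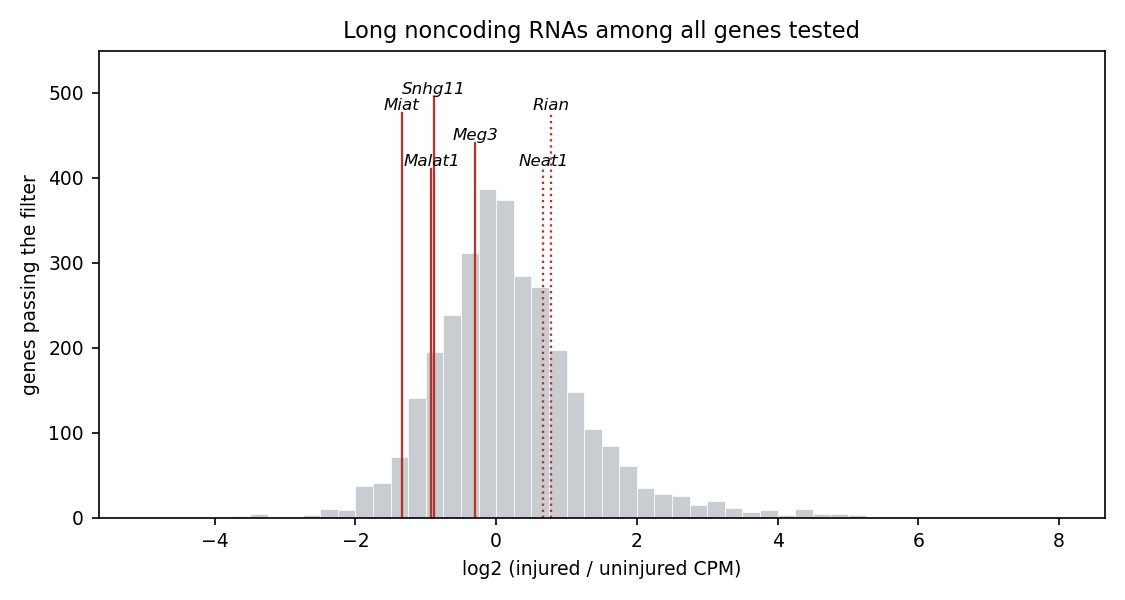
Histogram of the log2 ratio of injured to uninjured CPM over the 3158 genes that passed the filter, in steps of 0.25, with the 6 long noncoding RNAs marked by vertical lines. Solid lines are RNAs that passed the filter and dotted lines Neat1 and Rian, which did not. Miat, Malat1 and Snhg11 lie in the left part of the distribution, and Meg3 lies just left of the centre.

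Beyond the counting error of reads, the 6 RNAs did not all differ between the groups by the same factor. A spread between samples is not covered by this comparison. For each of the 15 pairs, the ratio of one RNA was divided by that of the other, with an exact conditional interval of 99.7%, so that the 15 intervals hold jointly at 95%. This measure was also chosen after the data were seen, and the scaling of the libraries cancels in it. The interval excluded 1 for 6 pairs and included it for 9.

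Meg3 was separated from each of the 3 RNAs that were lower by more than 1.5-fold. The ratio of Malat1 was 0.652 times that of Meg3 (0.536 to 0.792), that of Snhg11 was 0.671 times (0.532 to 0.845), and that of Miat was 0.486 times (0.294 to 0.795). The other 3 pairs set Malat1 against Neat1 (0.332, interval 0.0928 to 0.971), Miat against Neat1 (0.247, 0.0643 to 0.806) and Miat against Rian (0.229, 0.0506 to 0.827). Malat1 and Snhg11 could not be told apart, with 0.972 (0.793 to 1.19), nor could Miat and Malat1, with 0.745 (0.457 to 1.20). Meg3 and Rian, which lie in the same imprinted region, gave 0.472 (0.111 to 1.55), an interval too wide to separate them. The pair of Neat1 and Rian gave 0.928 with an interval of 0.153 to 5.29.

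**Figure D3:**
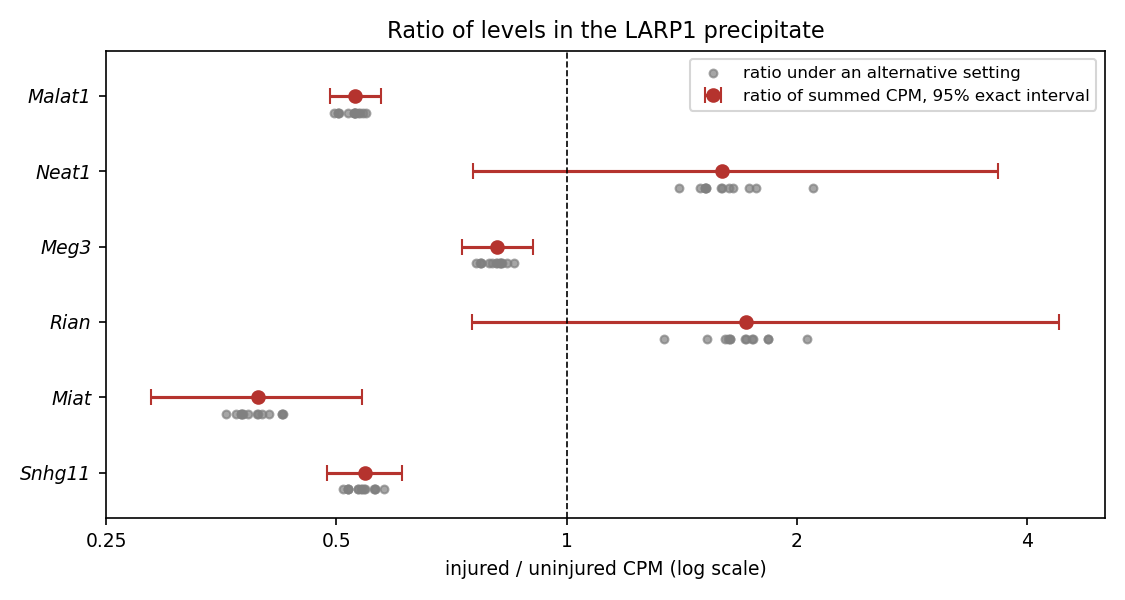
Ratio of injured to uninjured CPM for the 6 long noncoding RNAs on a log scale. Red points and bars are the ratio of the summed groups with its 95% exact interval, grey points below them the ratio under each alternative setting, and the dashed line is 1. The intervals of Malat1, Meg3, Miat and Snhg11 lie below 1, and those of Neat1 (0.756 to 3.67) and Rian (0.751 to 4.41) cross it.

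The make-up of the 6 shifted accordingly. Malat1 held 44.8% of their summed counts with injury and 50.6% without, while Meg3 held 29.8% and 21.9%. Snhg11 held 21.1% with injury and 23.1% without, and Miat 2.41% and 3.66%. Neat1 and Rian were each a small part in both groups, at 0.986% and 0.850% after injury and 0.369% and 0.296% without it. Both shares were larger with injury but rest on few counts, 29 and 25 with injury and 10 and 8 without. The counts were not divided by transcript length, so these shares compare the groups and do not rank the RNAs.

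**Figure D4:**
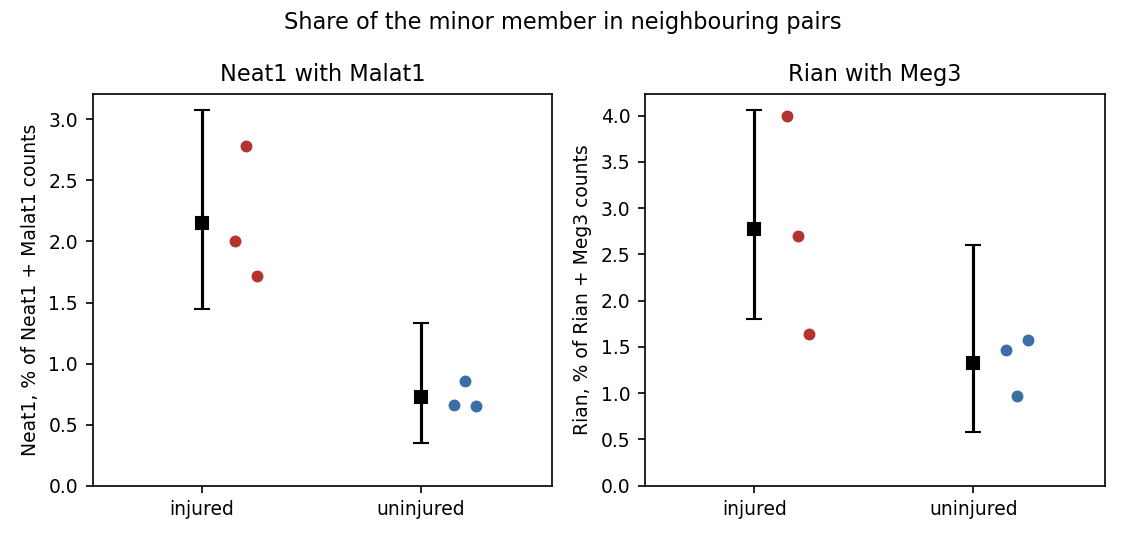
Neat1 as a percentage of Neat1 plus Malat1 counts (left) and Rian as a percentage of Rian plus Meg3 counts (right), for the injured and uninjured groups. Black squares are the summed groups with 95% exact intervals and coloured points single libraries. The Neat1 intervals (1.45% to 3.08% injured, 0.348% to 1.33% uninjured) do not overlap, and those of Rian do. The Neat1 share also depends on the level of Malat1, which was lower in the injured group.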

How the data were processed

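The authors deposited estimated counts per Ensembl gene, not normalized, for 6 LARP1 immunoprecipitates. Per the labels' protocols, ganglion lysate was precipitated with anti-LARP1 antibody and the RNA went into a nanopore cDNA-PCR barcoding kit. Per the submitters' processing notes, minimap2, Salmon and GRCm39 (mm39) were used; versions, parameters and annotation release were not given in the sources used here. The values were whole numbers. Groups came from sample titles and columns from library names, with 0 columns unused.

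The genes and gene lists were chosen with earlier results of these data known. The 6 genes are named as the selecting rule pairs them with identifiers; RefSeq (GRCm38.p6) matched all 6 by symbol but lists no Ensembl identifiers, so the planned lists of other lncRNAs, speckle proteins, Dlk1-Dio3 neighbours, injury genes, TOP RNAs and cell type markers were not analysed. With 2 samples, no genes of like pattern were named.

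Counts were summed by group and scaled to CPM of column totals. Intervals were computed with scipy 1.17.1 (Python 3.11.15). The depth per library was 116186 to 211879 counts, and 3 counts correspond to 4.73 CPM in the injured and 8.60 CPM in the uninjured group. All genes were tested with edgeR 4.0.16 in R 4.3.3 (quasi-likelihood, TMM, filterByExpr, threshold 0.05), with DESeq2 1.42.0 and limma 3.58.1 (voom) among the alternatives. The test was tried on simulated counts.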

Additional observations from a re-analysis of the deposited data

How the results depend on the processing

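All 82 alternative values of the 6 ratios stayed inside their 95% intervals. Every setting reused the same counts, so this is no replicate check. The values also stayed on the same side of 1, but the intervals of Neat1 and Rian include 1 and give no direction. They ranged over 0.496 to 0.546 for Malat1, 1.40 to 2.10 for Neat1, 0.760 to 0.853 for Meg3, 1.34 to 2.06 for Rian, 0.359 to 0.426 for Miat and 0.510 to 0.577 for Snhg11. TMM and DESeq2 size factors each moved every ratio by -0.07 on the log2 scale. With each library left out in turn, the ratios were 0.518 to 0.542 for Malat1, 1.40 to 1.77 for Neat1, 0.793 to 0.824 for Meg3, 1.34 to 2.06 for Rian, 0.359 to 0.426 for Miat and 0.534 to 0.562 for Snhg11. Without 1 library, Neat1 made up 1.85% to 2.38% of its pair in the injured and 0.658% to 0.758% in the uninjured group, and Rian 2.16% to 3.36% and 1.22% to 1.52%.

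Across all genes, edgeR called 786 genes higher and 699 lower. Without TMM factors it called 927 and 610, without a filter 948 and 582, DESeq2 called 801 and 599, limma-voom 665 and 729, and without 1 library 638 to 836 and 582 to 756. With edgeR's exact test on the summed counts and an assumed coefficient of variation of 0.2 (3.57% between libraries in the quasi-likelihood fit), 305 and 176 were called. This setting changed the test, the summing and the spread together, and the cause was not tested. It ended the calls of Malat1, Meg3 and Snhg11, with folds of 0.501, 0.768 and 0.515. In the other 13 fits all 4 tested RNAs were called lower. Without a filter and with DESeq2, where Neat1 and Rian were tested, neither was called. With the replicate block, 750 genes were called higher and 677 lower, and the fit could give no value for Neat1 and Rian, which its filter removed. The shared numbers were not shown to mark pairs: the deviations from the group means correlated between libraries of equal number at 0.009, 0.003 and -0.031, and 0 of 3 injured libraries correlated best with their own number. Among the 5004 genes whose mean reached 30 CPM, 1469 were higher and 1205 lower past 1.5-fold, against 946 and 663 of the 3158 tested. Past 2-fold these were 911 and 640, against 575 and 322. The sets differ in size, so the larger counts do not mean larger shares. Depth limits Neat1 and Rian, with 29 and 25 counts in the injured and 10 and 8 in the uninjured group.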
